A study of Bos taurus with 6 samples.

Results

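The VEGF and angiopoietin axis was followed through 10 genes in cultured bovine granulosa cells (GC), the somatic cells that line the ovarian follicle and surround the oocyte. The genes code for the ligands VEGFA, VEGFB and VEGFC, the receptor tyrosine kinases FLT1 and KDR, the co-receptors NRP1 and NRP2, the angiopoietins ANGPT1 and ANGPT2, and the matrix protein THBS1. They were chosen by name as a pathway, with earlier results of these data known. A transcript cluster, as the probes summarized for a gene are named on the array used, was taken when its gene symbol equalled that name. Each gene had a single transcript cluster, so that 10 of the 26773 transcript clusters on it (Bovine Gene 1.0 ST) are described. All 10 symbols are in the RefSeq gene table of the assembly ARS-UCD2.0, and for 7 of them the accession printed on the array belongs to the same RefSeq entry. For VEGFA, VEGFB and FLT1 the array gives an identifier of another database, Ensembl or GenBank. A look-up among RefSeq transcripts could not match these and so decides nothing about them, and the names rest on the symbol.

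RNA came from 6 cultures of primary GC, 3 at normal and 3 at high plating density, with 1 array each. A well received 100000 cells at normal density and 1000000 at high density. Both groups were kept for 9 days in serum-free medium on collagen-coated plastic with FSH at 20 ng/ml, the IGF-1 analogue at 50 ng/ml and androstenedione at 2 μM, and LH was not among the supplements. The cells had been aspirated from small to medium follicles, pooled over at least 15 cows of unknown cycle stage and frozen before plating. Such a culture holds no follicle wall and no perfused vessel. Whether the replicates of a density were separate pools or separate wells is not stated in the labels. The paper writes of 6 GC preparations, 3 samples per group, and describes preparations as cell pools. It does not say whether both densities were plated from the same pools. The p-values rest on the variation between these 6 samples only. In an RNA pool of this kind, fewer cells that express a gene and less RNA of it per cell cannot be told apart.

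VEGF ligands drive the growth of blood vessels. They bind FLT1 and KDR, which sit mainly on endothelial cells, and the neuropilins strengthen this binding. ANGPT1 holds vessels in a stable state through the receptor TEK, while ANGPT2 competes with it and loosens vessels so that they can sprout when VEGF is present. THBS1 acts mostly against vessel growth. The follicle's granulosa layer has no vessels of its own, and after ovulation it is invaded by capillaries as the corpus luteum forms, a process for which granulosa cells are a known source of VEGFA.

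Values are log2 signals from the authors' RMA processing, and a change is the difference of group means, high minus normal density, tested with limma, with p-values adjusted after Benjamini and Hochberg over the whole array. A gene is termed called when its fold change (FC) exceeded 1.5 in size with a p-value and an FDR below 0.05, the thresholds of the study's methods. A signal at or below 4.62, the 95th percentile of the 82 reporter control rows, is not told from background here, and no FC is given for a gene whose group means both lay there. Signals of different genes were not compared in level, because probes differ in brightness.

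Of the 10 genes 4 were called, and all 4 were up-regulated at high density. These were ANGPT2, VEGFA, NRP2 and VEGFB. The paper had already reported VEGFA as up-regulated, and the genes were chosen with earlier results known. Their counts are therefore descriptive and no independent support. Of all transcript clusters 7.49% were called, 3.97% as higher and 3.51% as lower. The signals of NRP2 lay below the background level at both densities. Among the 6 genes with a group mean above that level 3 were called, all higher, beside 12.8% called and 6.95% called higher among all transcript clusters with such a mean. Without an FC threshold, 8 of the 10 genes passed the FDR, 7 higher and 1 lower, against 19.1% of all transcript clusters, 8.64% higher and 10.4% lower. The groups did not overlap for 9 genes, 7 higher and 2 lower, while 37.3% of all transcript clusters had groups apart, 17.8% higher and 19.5% lower. The median change of the 10 genes was 0.46 on the log2 scale, and that of all transcript clusters was 0.02.

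**Figure D1:**
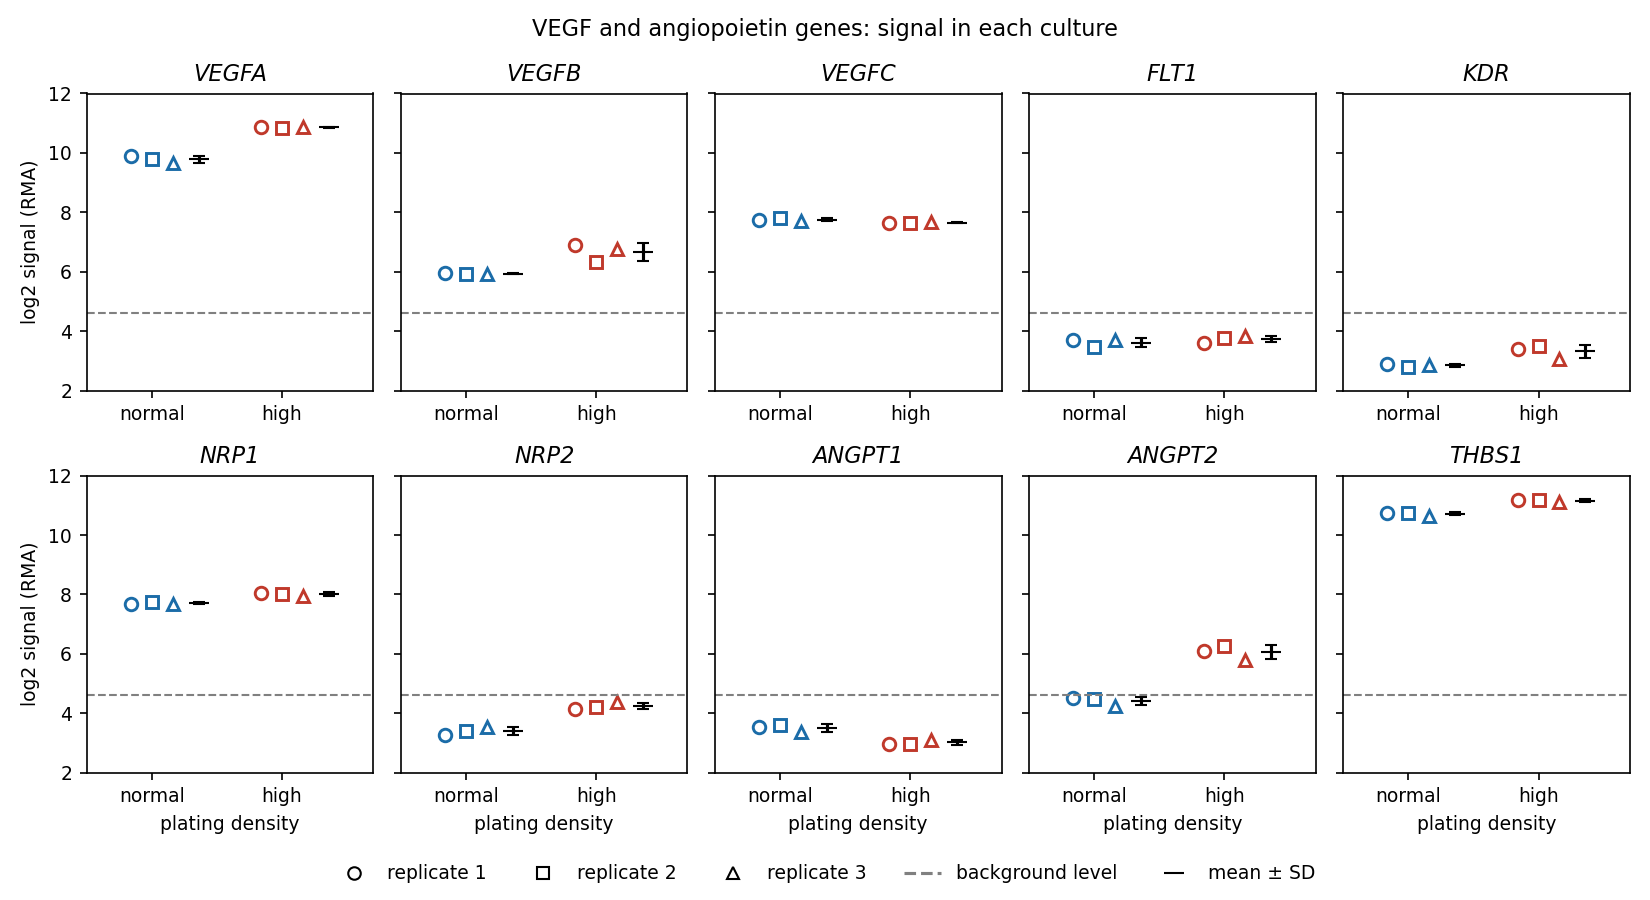
Log2 signal (vertical axis) of the 10 genes in each culture at normal (blue) and high (red) plating density; symbols mark replicates 1 to 3, the black bar with whiskers is the mean ± SD (n = 3), and the dashed line is the background level of 4.62. The high density cultures lie above the normal density ones for VEGFA, VEGFB and ANGPT2, while FLT1, KDR, NRP2 and ANGPT1 stay under the dashed line in every culture.

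VEGFA, the main vessel growth factor of the follicle and a textbook target of hypoxia-inducible factors (HIF), had strong signals in every culture. In the normal density cultures (replicates 1 to 3) its log2 signals were 9.89, 9.79 and 9.67, and in the high density cultures they were 10.88, 10.85 and 10.87. All high density cultures lay above all normal density cultures, and they differed from each other by less than 0.03. The group means were 9.79 ± 0.11 and 10.87 ± 0.01 (SD, n = 3). VEGFA (transcript cluster 12801086) thus had a log2 change of 1.08 (standard error 0.08, 95% interval 0.90 to 1.26), a 2.11-fold rise with limma's adjusted p = 1.55e-04. In size this exceeded the change of 97.9% of all transcript clusters. With each culture left out in turn the change was between 1.02 and 1.13 and VEGFA stayed called.

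VEGFB binds FLT1 and the neuropilin NRP1 but not KDR, and is known more for lipid handling and cell survival than for sprouting. Its normal density signals were 5.97, 5.93 and 5.93, and its high density signals were 6.89, 6.33 and 6.77. The groups were apart, but high density replicate 2 lay nearer to the normal density cultures than the others did. The SD was 0.02 at normal density around a mean of 5.94, and 0.30 at high density around 6.66 (n = 3 each). VEGFB (12829447) rose 1.65-fold, a log2 change of 0.72 (standard error 0.14, 95% interval 0.39 to 1.05, limma's adjusted p = 0.0114). Without high density replicate 2 the log2 change was 0.89 with limma's adjusted p = 7.72e-04, and without high density replicate 1 it was 0.61, close to the FC threshold of 0.58 on this scale. The call was lost with the methods' t-test, which estimates the spread from each gene alone (adjusted p = 0.0768).

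VEGFC acts mainly on lymphatic vessels through the receptor FLT4. At normal density its signals were 7.74, 7.80 and 7.73, and at high density 7.63, 7.66 and 7.66. The groups did not overlap, yet the gap between them was only 0.06. VEGFC (12824834) had a log2 change of −0.11 (standard error 0.06, 95% interval −0.26 to 0.04) and did not pass the FDR (limma's adjusted p = 0.306). This interval leaves out changes of the size seen for VEGFA or VEGFB. PGF, the placental growth factor and a further FLT1 ligand, does not belong to the 10 genes but rose from 4.03 ± 0.05 to 5.02 ± 0.17 (SD, n = 3), with limma's adjusted p = 5.51e-04. At normal density PGF was within background, and relative to that level the rise was at least 1.32-fold.

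The receptors FLT1 and KDR gave no signal above background in any culture. FLT1 (12709110) had normal density signals of 3.71, 3.46 and 3.70 and high density signals of 3.62, 3.76 and 3.85. The groups overlapped, and the log2 difference of 0.12 (95% interval −0.11 to 0.35) did not pass the FDR (limma's adjusted p = 0.454). KDR, the receptor that carries most of the VEGFA signal in endothelial cells, had signals of 2.89, 2.80 and 2.86 at normal and 3.40, 3.51 and 3.08 at high density. Here the groups were apart, with high density replicate 3 nearest to the normal density cultures. The log2 difference of KDR (12873413) was 0.48 (standard error 0.12, 95% interval 0.21 to 0.75, limma's adjusted p = 0.0275), which did not reach the FC threshold and lay wholly within background. KDR was called without high density replicate 3, with a log2 difference of 0.60, while limma's adjusted p was as high as 0.0941, above the FDR threshold, without normal density replicate 2.

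FLT4 and the angiopoietin receptors TEK and TIE1 were likewise below background at both densities. At normal and high density their group means were 3.57 and 3.72 for FLT4, 2.63 and 2.27 for TEK, and 2.58 and 2.68 for TIE1. None was called, though TEK passed the FDR as lower within background (limma's adjusted p = 0.0303). These 3 were added after their values were seen, because they complete the set of receptor kinases. All 5 receptor kinases of both ligand families were therefore without a group mean above background, as were 51.2% of all transcript clusters. The neuropilin NRP1 was above it at both densities.

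NRP1 binds the heparin-binding forms of VEGFA and also class 3 semaphorins, and many cell types outside vessels carry it. Its signals were 7.68, 7.75 and 7.69 at normal density and 8.06, 8.02 and 7.94 at high density. Every high density culture was above every normal density culture. NRP1 (12716651) differed by 0.30 on the log2 scale (standard error 0.07, 95% interval 0.13 to 0.46, limma's adjusted p = 0.0239). This corresponds to an FC of 1.23, under the threshold of 1.5, and the whole interval stayed under it. With single cultures left out limma's adjusted p was between 0.0271 and 0.0927, and it missed the FDR without any 1 of the normal density cultures or without high density replicate 1.

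NRP2, the neuropilin tied to VEGFC and lymphatic vessels, was called but dim. Signals were 3.27, 3.40 and 3.54 at normal and 4.16, 4.23 and 4.37 at high density, without overlap. The log2 difference of NRP2 (12779003) was 0.85 (standard error 0.10, 95% interval 0.63 to 1.08) with limma's adjusted p = 0.00105. Since both group means were under 4.62, no FC is given. With the 90th percentile of the reporter rows as background, 4.11, the high density mean of 4.25 would lie above it.

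ANGPT2 had the largest change of the 10 genes. At normal density its signals were 4.50, 4.49 and 4.24, all just below the background level, and at high density they were 6.08, 6.27 and 5.80, all above it. The groups were separated by 1.30, more than the range within either of them. With means of 4.41 ± 0.14 and 6.05 ± 0.23 (SD, n = 3), ANGPT2 (12824843) had a log2 change of 1.64 (standard error 0.13, 95% interval 1.33 to 1.95, limma's adjusted p = 2.38e-04). Set against the background level, the rise was at least 2.70-fold. It was called under all 17 alternatives tried.

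ANGPT1 gave the opposite sign in signals within background. Its signals were 3.53, 3.61 and 3.38 at normal and 2.97, 2.98 and 3.11 at high density, and the groups did not overlap. The log2 difference of ANGPT1 (12721644) was −0.49 (standard error 0.09, 95% interval −0.69 to −0.28, limma's adjusted p = 0.00811), past the FDR but not the FC threshold. As no culture had a signal above background, the difference is given without an FC.

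THBS1, a secreted glycoprotein that blocks vessel growth through CD36 and activates latent TGF-beta, was strongly detected. Its signals were 10.75, 10.73 and 10.65 at normal and 11.16, 11.19 and 11.11 at high density. The groups were apart by 0.35, while the cultures of 1 density spanned at most 0.10. THBS1 (12688001) differed by 0.44 on the log2 scale (standard error 0.07, 95% interval 0.28 to 0.60, limma's adjusted p = 0.00423), an FC of 1.36 that was not called. Among its relatives, THBS2 had means of 10.32 and 10.26 and THBS3 of 6.19 and 5.98, and neither passed the FDR. CD36, the receptor through which THBS1 inhibits endothelial cells and also a fatty acid transporter, fell from 8.54 ± 0.08 to 7.71 ± 0.20 (SD, n = 3), a log2 change of −0.82 with limma's adjusted p = 0.00236. THBS2 and THBS3 were added after their values were seen.

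**Figure D2:**
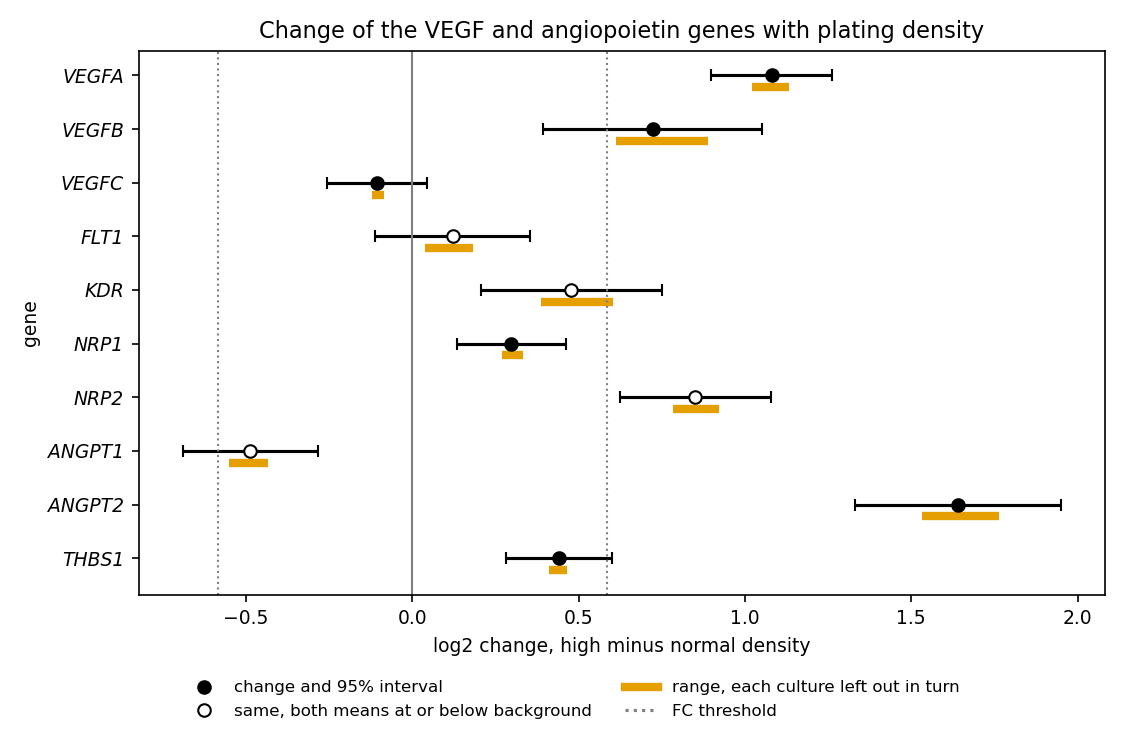
Log2 change, high minus normal density (horizontal axis), of the 10 genes with the 95% interval of limma (whiskers); open circles mark genes whose group means both lie at or below background, orange bars span the changes with each culture left out in turn, and dotted lines mark the FC threshold of 1.5. The intervals of VEGFA, ANGPT2 and NRP2, the last within background, lie wholly beyond the right dotted line, and VEGFC and FLT1 have intervals that include 0.

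Because both signals of a pair come from the same array, the log2 difference between related genes shows whether they changed unequally. The pairs were VEGFA with VEGFB, VEGFA with VEGFC, ANGPT2 with ANGPT1, NRP2 with NRP1 and KDR with FLT1. In the pairs of VEGFA all genes were above background. VEGFA gained 1.19 over VEGFC at high density, where the difference had an SD of 0.11 within the normal density cultures (n = 3). VEGFA gained 0.36 over VEGFB, and 0.20 without high density replicate 2. The other 3 pairs hold signals that are not told from background, namely those of ANGPT1, KDR, FLT1 and NRP2 at both densities and of ANGPT2 at normal density, so that only the direction is given for them. ANGPT2 gained on ANGPT1, and NRP2 on NRP1. For these 4 pairs all high density cultures lay above all normal density cultures (two-sided exact permutation test, p = 0.1 for each, the smallest that 3 cultures against 3 allow, and 0.125 adjusted over the 5 pairs). For KDR and FLT1 the groups overlapped (two-sided exact permutation test, p = 0.2).

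**Figure D3:**
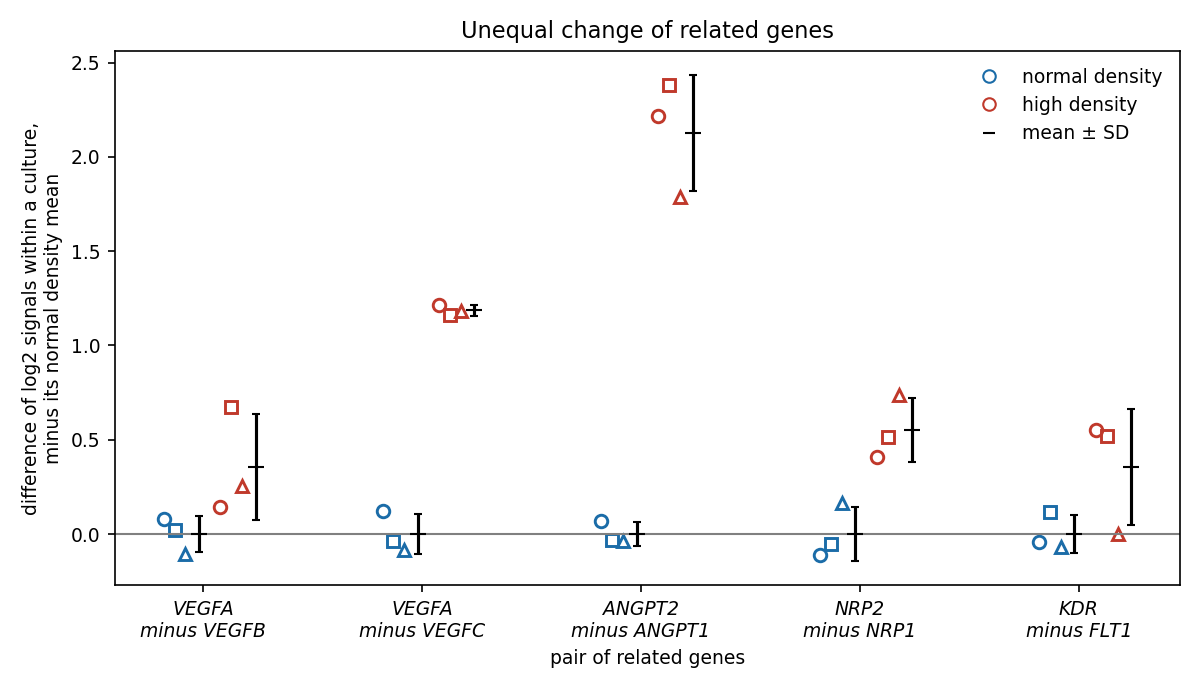
Difference of log2 signals between 2 related genes in each culture, shifted so that the normal density mean is 0 (vertical axis), for normal (blue) and high (red) density; circles, squares and triangles are replicates 1 to 3, and bars are the mean ± SD (n = 3). VEGFA minus VEGFC stands clear of its normal density values, and for KDR minus FLT1 replicate 3 of high density lies among them. The pairs with ANGPT1, NRP2, KDR or FLT1 include signals within background.

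The cell type label was checked against marker genes. All 13 granulosa cell markers had a mean above background in at least 1 group, 12 at normal and 12 at high density. Of the 13, 1 was called higher and 6 lower (53.8%). Counts in the marker lists stand beside 7.49% called among all transcript clusters and 12.8% among those with a group mean above background. Granulosa marker changes ran from −2.80 to 1.26 on the log2 scale, with a median of −0.31. The paper lists CYP19A1, FSHR and INHA, which belong to these markers, among its most down-regulated genes. Of 20 endothelial markers 4 had a mean above background at normal density and 5 at high density. The defining markers PECAM1 (2.66 and 2.77) and CDH5 (2.40 and 2.36) were far below it at both densities. VWF was above it, at 5.39 and 5.70, and was not called, while 2 markers were called higher and 1 lower. The higher ones were CLDN5, a tight junction gene of endothelial and other barrier cells, with means of 4.71 and 7.53, and CLEC14A, which stayed within background. LYVE1 was the lower one, with means of 7.48 and 6.25. The mean log2 signal of the endothelial list was 3.51 to 3.57 in the normal and 3.68 to 3.76 in the high density cultures. None of 11 leukocyte markers was above background at either density. In the pericyte and fibroblast list 7 of 10 markers were above background at normal and 8 at high density, and 4 were called higher, 1 lower. Its mean log2 signal was 6.64 to 6.75 in the normal and 7.15 to 7.31 in the high density cultures. The theca list shares 4 of its 6 genes with that list. Its enzyme CYP17A1 was below background at both densities, while the other 5 genes, INSL3 among them, were above it at both. Of the 6 genes 2 were called higher, and the largest change in the list was 1.82 on the log2 scale. The largest in the pericyte and fibroblast list was 1.71, so the 1.82 belongs to a gene that the lists do not share. Of the 6 red blood cell markers only HBA, a haemoglobin chain, was above background, and only at high density, where its mean was 9.37 ± 0.35 against 3.48 ± 0.08 (SD, n = 3), at least 27.0-fold higher and called. In the surface epithelium list 3 of 7 genes were above background at each density, and 1 of the 7 was called, higher. The part of these marker levels in the VEGF and angiopoietin values was not tested. High density replicate 2 stood apart from the other high density cultures on the second principal component, and it was the lowest of them for VEGFB and the highest for KDR and ANGPT2. Without it ANGPT2 changed by 1.53.

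Further genes of the pathway were taken from lists written from general knowledge, with earlier results of these data known. EGLN3, LOX, NDRG1 and ADAMTS1, which stand in these lists, are among the genes that the paper reported as higher. The counts called in the lists are therefore descriptive and no independent support. They stand beside 7.49% called among all transcript clusters and 12.8% among those with a group mean above background. The median change over the array was 0.02. In the remaining VEGF, angiopoietin and thrombospondin family 2 of 13 genes were called, PGF higher and CD36 lower, with a median change of −0.06. Of the 7 angiopoietin-like genes on the array 2 were called, with a median change of 0.08. ANGPTL4, an inhibitor of lipoprotein lipase that also affects vessel leakiness, rose from 4.94 ± 0.16 to 6.41 ± 0.15 (SD, n = 3), a log2 change of 1.46 with limma's adjusted p = 1.84e-04. ANGPTL2 fell by 0.59 on the log2 scale (limma's adjusted p = 0.00250), just past the FC threshold, and was not called without normal density replicate 2, high density replicate 2 or high density replicate 3, which left 1 called gene in the list.

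A list of genes for the proteins that pass the receptor signal on inside the cell followed. Of 45 transcript clusters for 44 such genes 40 had a mean above background, and 2 were called (4.44%, beside 7.49% of all). Without an FC threshold 11 of the 45 passed the FDR, beside 19.1% of all transcript clusters. The regulatory PI3-kinase subunit PIK3R1 fell by 1.07 on the log2 scale, from 10.39 to 9.32 (limma's adjusted p = 1.32e-04). The protein kinase C gene PRKCB rose by 0.80 (limma's adjusted p = 0.00131). The median change in this list was 0.02. The list held 4 called transcript clusters when replicate 1 of normal density was left out, and also when replicate 3 of high density was.

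Another list held genes known to respond to VEGF or to mark sprouting tip cells in endothelium. Of 21 transcript clusters for 20 such genes 10 were called (47.6%, beside 7.49% of all and 12.8% of those with a group mean above background), all higher, and PGF was 1 of them. The median change was 0.48, and 13 of the 21 had a group mean above background. CXCR4, a chemokine receptor, rose from 3.96 ± 0.03 to 6.60 ± 0.16, and APLN, the ligand of the apelin receptor, from 4.02 ± 0.14 to 6.49 ± 0.15 (SD, n = 3). Both started below background, so that the rises were at least 3.94-fold and 3.65-fold. NR4A1, an immediate early nuclear receptor, changed by 1.75 (limma's adjusted p = 9.73e-05).

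Class 3 semaphorins share the neuropilins with VEGF and signal with plexins. In this list 5 of 14 genes were called (35.7%, beside 7.49% of all transcript clusters), all higher, with a median change of 0.25. SEMA3D rose from 4.10 ± 0.20, below background, to 6.75 ± 0.28, at least 4.38-fold, and SEMA3F from 5.55 ± 0.13 to 7.57 ± 0.19 (SD, n = 3), a log2 change of 2.01 with limma's adjusted p = 5.55e-05. The plexin PLXND1 rose from 4.48, below background, to 5.57, at least 1.93-fold. SEMA3F also stands in the list of angiogenesis inhibitors.

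Factors that promote and factors that restrain vessel growth were both among the called genes. Of 26 transcript clusters for 25 other angiogenic factors 7 were called (26.9%, beside 7.49% of all), all higher, with a median change of 0.24. CTGF, a matricellular growth factor, rose by 1.59, the fibroblast growth factor FGF2 by 1.41 and the BMP antagonist GREM1 by 1.30 on the log2 scale. Of 22 transcript clusters for 21 inhibitors 6 were called (27.3%, beside the same 7.49%), all higher, with a median change of 0.09. Besides SEMA3F these included SERPINF1, from 3.51 ± 0.20 to 5.08 ± 0.35, and COL18A1, the source of endostatin, from 4.46 ± 0.07 to 5.84 ± 0.16 (SD, n = 3). Both started below background, and their rises were at least 1.37-fold and 2.32-fold.

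On the side of VEGFA's own control, 4 of 22 transcript clusters for 21 regulators were called, all higher. All 4 were among the 20 with a group mean above background, beside 12.8% called among all transcript clusters with such a mean, and the median change of the list was −0.0071. These were the HIF prolyl hydroxylase EGLN3, 1 of the transcript clusters of its relative EGLN1, the HIF partner ARNT2 and the stress factor ATF4. EGLN3 had the largest rise of the list, from 4.42, below background, to 7.99, at least 10.4-fold, while ATF4 changed by 0.80 (limma's adjusted p = 5.51e-04), ARNT2 by 0.72 (limma's adjusted p = 0.00786) and EGLN1 by 0.65 (0.37 in its other transcript cluster, which was not called). Of 21 transcript clusters for 20 hypoxia-response genes, EGLN3 again among them, 11 were called (52.4%), all higher. All 21 had a group mean above background, where 12.8% of all transcript clusters were called. Over the whole list the changes ran from 0.06 to 3.57, with a median of 0.62. The change of VEGFA, 1.08, lay above this median. The largest rises in the hypoxia-response list were those of EGLN3, LOX and NDRG1. HIF1A, EPAS1, HIF3A, ARNT and VHL stand in the list of regulators and were not called. Whether any of these genes had a part in the change of VEGFA was not tested.

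**Figure D4:**
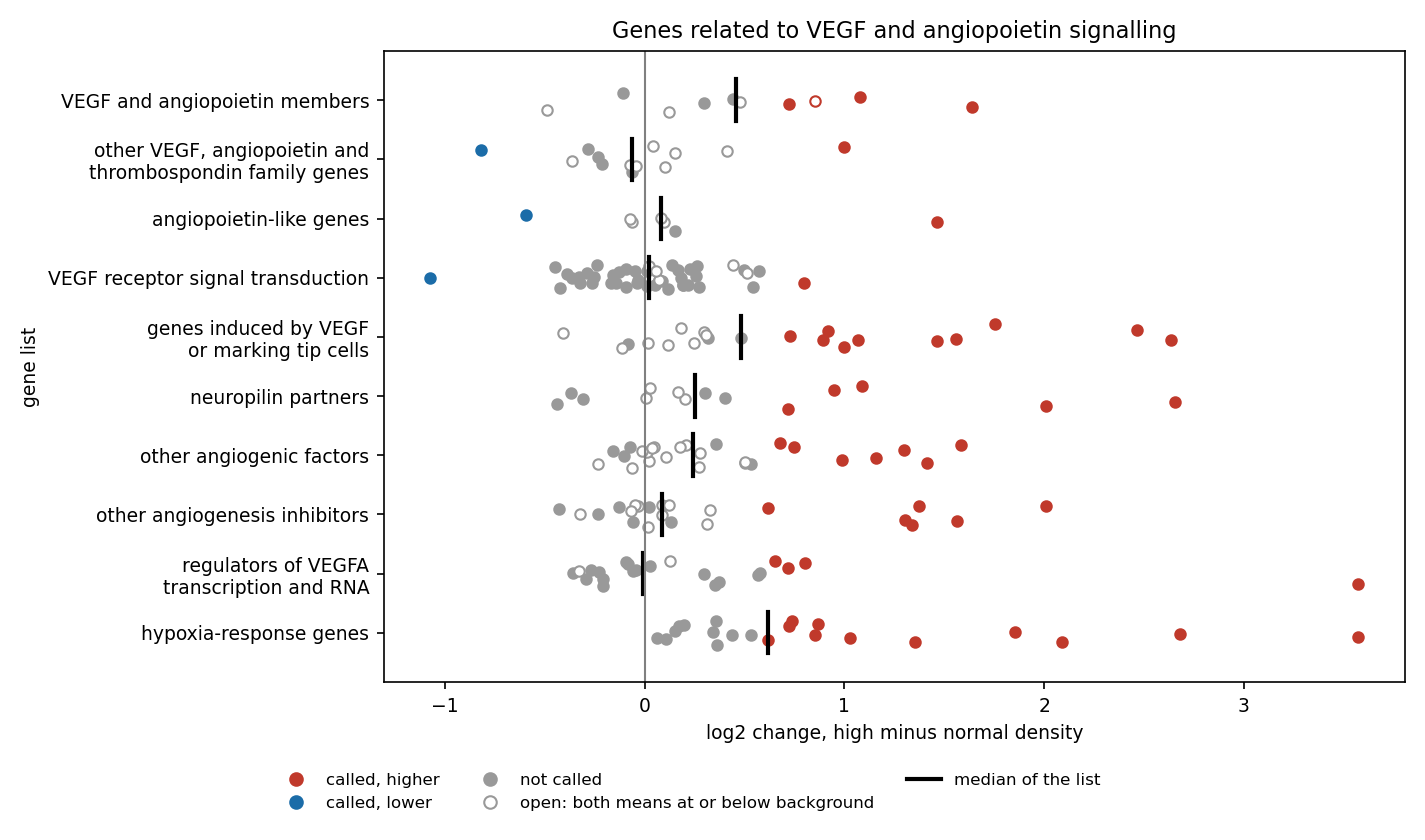
Log2 change, high minus normal density (horizontal axis), of the transcript clusters in each gene list; red and blue points were called higher and lower, grey points were not called, open points have both group means at or below background, and black ticks are medians. Among the VEGF-induced and hypoxia-response lists the called genes were all higher, 10 of 21 and 11 of 21. The signal transduction list centres on 0.02 with 2 of 45 called. Of all transcript clusters 7.49% were called.

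Across the 6 cultures, the annotated transcript clusters most like each called gene were found by Pearson's r among 11250 with a group mean above background. For VEGFA these were TTL, LPIN1 and RASGRP1, each with r = 0.999. ANGPT2 was closest to MTHFD1L (r = 0.999), SEMA3D (r = 0.999) and MAP3K13 (r = 0.998), the second of which is a partner of the neuropilins. For VEGFB they were SPRED3 (r = 0.997) and TNFAIP3 (r = 0.997) after NRM, with a still higher r. For NRP2 they were CHL1 (r = 0.999), CA13 (r = 0.998) and CDK2AP1 (r = 0.998). The NRP2 signals were not told from background in any culture, so its correlations describe no measured expression. Such values were frequent, since the cultures share the difference in density. Of the transcript clusters searched, 9.33% had r above 0.95 with VEGFA, 7.71% with ANGPT2, 5.59% with NRP2 and 3.96% with VEGFB.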

How the data were processed

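The labels put 6 cultures into 2 groups of 3. The authors hybridized 1 array per culture and processed the scans in Expression Console with RMA at default settings. The deposited table holds log2 signals per transcript cluster, already background corrected, normalized between arrays and summarized, with array medians between 4.34 and 4.43. It was used whole without further normalization, 0 columns belong to other samples, and no genome build is given in the sources used here.

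Differences between the densities were fitted in R 4.3.3 by lmFit and eBayes of limma 3.58.1, without covariates, and adjusted over all 26773 rows. The script was tested on simulated data of the same size. Genes named are the 10 members, the 3 largest called changes per list with groups apart and a mean above background, and markers. Also named are the 3 transcript clusters most like each called gene, and genes stated to be added later. EGLN1, ADAMTS1 and the regulators HIF1A, EPAS1, HIF3A, ARNT and VHL, which were not called, fall outside the rule. The members and lists were chosen with earlier results of these data known. Alternatives were other tests, variance models, array weights, a replicate block, scalings, filters, thresholds and leaving out each culture. Figures were drawn with matplotlib 3.10.9. The number of arrays limits the precision. Sequences of the genes were not used here.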

Additional observations from a re-analysis of the deposited data

How the results depend on the processing

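The sign of the change of each of the 10 genes was the same under all alternatives in which it was tested. The number of called genes was 4, all higher, and moved to 2 with the Welch version of the t-test (ANGPT2 and NRP2) and to 2 with limma's treat (ANGPT2 and VEGFA). Without an FC threshold it was 8, with 7 higher and 1 lower. VEGFA missed the FDR only with the Welch version (adjusted p = 0.0545). VEGFB lost its call with both plain tests, with treat and at an FDR of 0.01, and NRP2 lost it with treat. When single cultures were left out, 4 to 5 genes were called, the added gene being KDR without high density replicate 3. Over all transcript clusters 2005 were called, 1064 higher and 941 lower. This became 1611 (923 and 688) with the t-test of equal variances and 838 (525 and 313) with the Welch version. It was 529 (369 and 160) with treat and 5106 (2314 and 2792) without an FC threshold. In the gene lists the counts of 2 (other family genes), 2 (angiopoietin-like), 2 (signal transduction), 10 (VEGF-induced), 5 (neuropilin partners), 7 (angiogenic factors), 4 (VEGFA regulators) and 11 (hypoxia-response) became 0, 1, 1, 6, 3, 4, 1 and 6 with treat. With the Welch version the other family genes gave 0, signal transduction 1, VEGF-induced genes 6 and VEGFA regulators 1. Without an FC threshold other family genes gave 4, signal transduction 11, neuropilin partners 8, angiogenic factors 11 and VEGFA regulators 10. A second quantile normalization left 1 angiopoietin-like gene. Of the marker counts, 7 (granulosa), 2 (theca), 5 (pericyte and fibroblast) and 1 (surface epithelium) became 4, 1, 2 and 0 with the Welch version, and the last 3 became 1, 2 and 0 with treat. The surface epithelium count was also 0 with array weights, with arrays shifted to the same median and without high density replicate 2, and 5 endothelial markers in place of 3 passed without an FC threshold. The background level of 4.62 became 4.38 as the median of all signals, 4.11 as the 90th and 4.92 as the 99th percentile of the reporter rows. Under the first and second of these the normal density mean of ANGPT2, 4.41, lies above background. The labels do not say whether same-numbered cultures share a cell pool. Their deviations from the group means correlated by 0.05, −0.05 and −0.04, and not every culture correlated best with its own number. With 3 arrays per group these correlations cannot decide it. With the replicate number as a block 4 of the 10 genes were called, and NRP1 missed the FDR (limma's adjusted p = 0.0647). The causes of these shifts were not tested.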
